A study of Homo sapiens with 6 samples.

Results

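The HOX genes of the 4 clusters were followed through 6 expression arrays of stem cell cultures that had been differentiated toward insulin-expressing cells. The members were all rows of the deposited table whose symbol is HOXA, HOXB, HOXC or HOXD followed by a number, which gave 39 of 31410 gene symbols, and all 39 had a current RefSeq symbol. Human embryonic stem cells of the established lines HUES8 and H1, grown on matrigel, had been taken to stage 6, the last step of a pancreatic protocol. HUES8 was represented by differentiation 3 and H1 by differentiations 2 and 1, and each differentiation was divided into a processed and a live sample. Processed cells were fixed in paraformaldehyde, permeabilized, stained with antibodies and run through the sorter with every cell kept, whereas live cells were extracted fresh, and a different extraction kit was used for each. The 2 arrays of a differentiation therefore show the same culture, and the lines were compared over 3 cultures, with HUES8 supplied by 1 of them, so that the spread among HUES8 cultures was not measured. Whole cultures were measured, so a lower level in a few cells and fewer cells with the gene cannot be told apart.

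HOX genes encode homeodomain transcription factors that give cells their position along the head to tail axis of the embryo. In each cluster, the genes at the 3′ end (low paralog numbers) act in the hindbrain and anterior trunk, and those at the 5′ end (high numbers) act toward the tail and in the limbs. Genes of the same number in different clusters are paralogs, which descend from 1 ancestral gene. Retinoic acid switches on the 3′ genes, CDX factors act on the central ones, Polycomb proteins keep the clusters silent, and proteins of the PBX and MEIS families bind DNA together with HOX proteins.

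The median intensity of the arrays lay between 22.5 and 27.4, and 39.1% to 40.4% of all gene symbols reached an intensity of 40, the level taken here as expressed. The stage 6 identity was checked on the endocrine markers: INS, which encodes insulin, lay between 1898 and 5069 on the 6 arrays. NKX6-1, a transcription factor of β cells, stayed between 5.65 and 34.8, below the level taken as expressed.

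Of the 6 members expressed here, 3 had a promoter in the RefSeq sequence table of the build GRCh38.p14, and they are shown because they carry the contrasts below: HOXA2 was bright on all arrays, HOXC4 was bright in 1 culture only, and HOXA6 stood close to 40 in HUES8. Each run holds the 250 bases before the start that RefSeq gives for the gene, written in the direction of transcription, from chr7:27102684-27102933 on the minus strand for HOXA2, chr12:54016638-54016887 on the plus strand for HOXC4 and chr7:27147775-27148024 on the minus strand for HOXA6. Capitals mark matches, on either strand, to TGATNNAT (a site bound by PBX with HOX proteins), TTTATNG (a CDX site), AGGTCA (the repeated unit of retinoic acid receptor sites) or TATAAA (the TATA box). None of the marked matches overlapped another.
HOXA2: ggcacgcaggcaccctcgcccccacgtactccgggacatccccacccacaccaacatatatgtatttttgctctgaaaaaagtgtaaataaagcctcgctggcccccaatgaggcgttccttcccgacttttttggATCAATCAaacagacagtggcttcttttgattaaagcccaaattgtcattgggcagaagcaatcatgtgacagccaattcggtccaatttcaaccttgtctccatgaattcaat
HOXC4: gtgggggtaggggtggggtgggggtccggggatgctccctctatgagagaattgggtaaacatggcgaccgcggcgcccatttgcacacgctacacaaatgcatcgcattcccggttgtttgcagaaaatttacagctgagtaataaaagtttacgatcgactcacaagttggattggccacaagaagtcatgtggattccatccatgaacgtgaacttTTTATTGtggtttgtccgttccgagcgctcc
HOXA6: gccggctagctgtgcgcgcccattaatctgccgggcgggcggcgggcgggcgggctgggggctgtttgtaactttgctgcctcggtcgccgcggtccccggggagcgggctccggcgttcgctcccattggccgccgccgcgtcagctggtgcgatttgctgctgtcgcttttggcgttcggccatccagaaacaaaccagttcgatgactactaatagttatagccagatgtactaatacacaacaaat

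The HOXA2 window held 1 match to TGATNNAT, between 114 and 107 bases before the start, the HOXC4 window held 1 match to TTTATNG, between 31 and 25 bases before it, and the HOXA6 window held none of the motifs. Of 35116 windows of this length in the table, 6.47% held TGATNNAT, 8.93% TTTATNG, 12.1% AGGTCA and 10.7% TATAAA. Of the 20 HOX members with a window, 3 held TGATNNAT (HOXA2, HOXB1 and HOXD11), 6 held TTTATNG, 4 held TATAAA and 0 held AGGTCA. These members had 27 windows, and a member was counted if any of its windows held the motif. The counts are therefore per gene and cannot be set directly against the shares per window. HOXC4 and HOXC5, both among the 6, held the same match, between 31 and 25 bases before the start. In RefSeq, HOXC4 shares its first or last base with HOXC5 and HOXC6, and the span of HOXA3 overlaps HOXA4, HOXA5 and HOXA6. The transcript that each row of the table reads was not given in the sources used here.

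Expression was confined to the 3′ and central parts of the clusters on these arrays. Of the 39 members, 6 reached an intensity of 40 on both arrays of at least 1 culture, namely HOXA2 and HOXB2 of paralog group 2, HOXC4 of group 4, HOXA5 and HOXB5 of group 5 and HOXA6 of group 6. This was 15.4% of the members, against 41.7% of all gene symbols. Only HOXA2 and HOXB2 reached 40 on all 6 arrays (5.13% of the members, against 33.8% of all gene symbols). The clusters A, B, C and D supplied 3, 2, 1 and 0 of the 6 genes. The number at 40 on both arrays was 3 in HUES8 (HOXA2, HOXB2 and HOXA6), 3 in H1 differentiation 2 (HOXA2, HOXB2 and HOXB5) and 6 in H1 differentiation 1. A minimum of 60 kept these 6 genes, a minimum of 80 kept HOXA2, HOXB2, HOXA5 and HOXC4, and a minimum of 30 added HOXC6, HOXC13 and HOXD3.

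**Figure D1:**
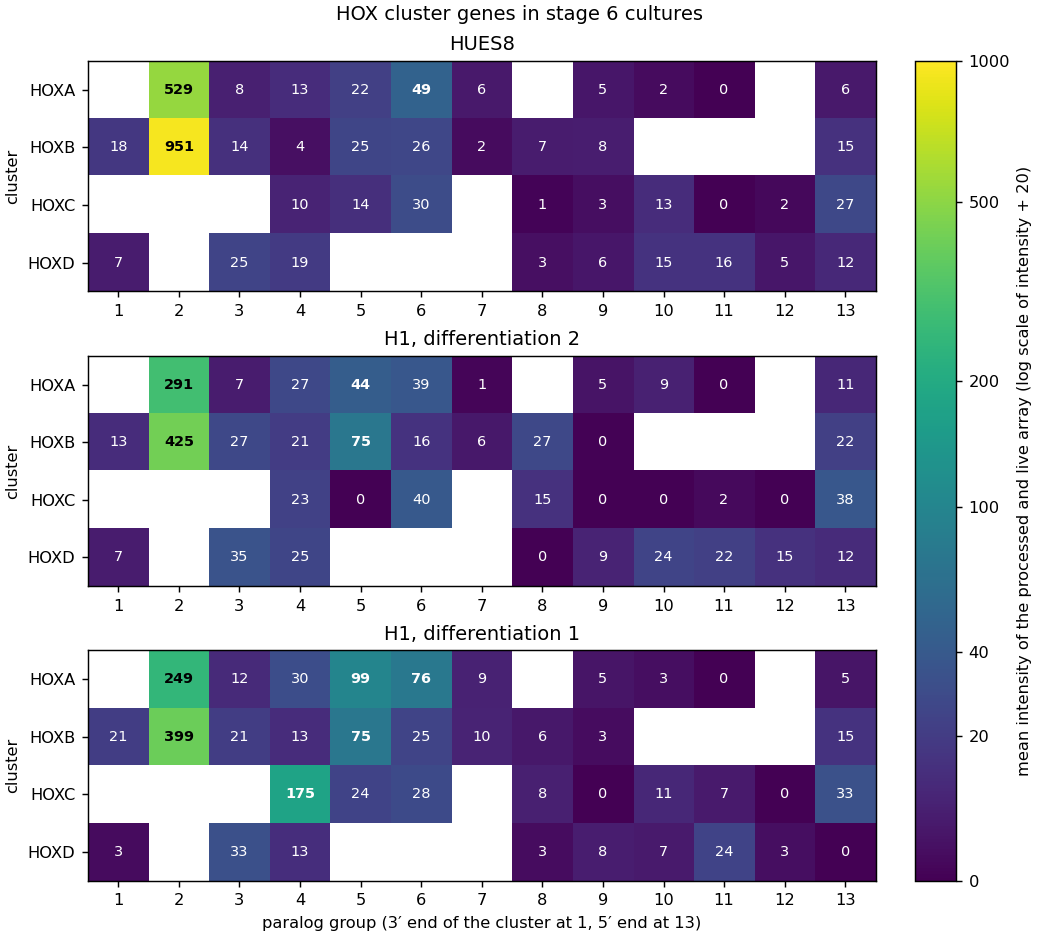
Mean intensity of the processed and live array of each culture for the HOX genes, by cluster (rows) and paralog group (columns), with HUES8 on top and the H1 differentiations under it. Colour follows intensity + 20 on a log scale, negative means are drawn as 0, white cells have no value shown, and bold numbers are means of at least 40, which lie in groups 2, 4, 5 and 6 only.

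The other 33 members were dim. HOXC6, HOXC13 and HOXD3 passed 40 on 1 array each, all of H1 differentiation 2, at 43.6 (live), 41.8 (live) and 43.7 (processed). The remaining 30 were below 40 on every array, with values between -10.9 and 36.2. HOXB1 and HOXD1 of group 1, which is the first group of HOX genes to be switched on in the embryo, stayed between -1.04 and 23.7. HOXA3 and HOXB3, which pattern the hindbrain and the pharyngeal region next to group 2, lay between 6.30 and 32.2. HOXA4, the cluster A paralog of HOXC4, did not exceed 16.4 in HUES8, against 21.7 to 35.8 in H1, and with no array at 40 it was not tested.

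Groups 7 to 13 hold 21 of the members, and none reached 40 on both arrays of a culture. HOXC13, a regulator of hair and nail formation, passed 40 on 1 array (41.8), and 20 of the 21 were below 40 throughout. HOXD cluster genes, which pattern limbs and the genital tract from their 5′ end, did not exceed 43.7 in any of 9 members. The 5′ genes HOXA13, HOXB13 and HOXD13, which mark the hindgut and the tail end of the trunk, lay between -4.51 and 36.2.

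HOXA2, which sets the identity of the second pharyngeal arch and of the hindbrain in the mouse, had intensities of 447 in the processed and 611 in the live sample of HUES8, against 256 and 325 in H1 differentiation 2 and 230.3 and 267 in H1 differentiation 1. Both HUES8 arrays lay above all 4 H1 arrays, and the H1 cultures overlapped each other. On the log2(intensity + 20) scale used for all differences here, HUES8 minus H1 was 0.92 (SE 0.35, 95% interval 0.17 to 1.67), which is 1.89-fold, and it did not pass over all genes (limma, adjusted p = 0.323).

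HOXB2, the group 2 paralog in cluster B and a hindbrain gene as well, had intensities of 751 (processed) and 1151 (live) in HUES8, against 375 and 474 in H1 differentiation 2 and 299 and 499 in H1 differentiation 1. Again both HUES8 arrays lay above all H1 arrays. The difference was 1.16 (SE 0.34, 95% interval 0.42 to 1.91), or 2.24-fold (limma, adjusted p = 0.154). Within the processed arrays alone the differences were 1.12 for HOXB2 and 0.83 for HOXA2, and within the live arrays 1.21 and 1.00. The H1 cultures were 0.12 apart for HOXB2 and 0.20 for HOXA2 (differentiation 2 minus 1).

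**Figure D2:**
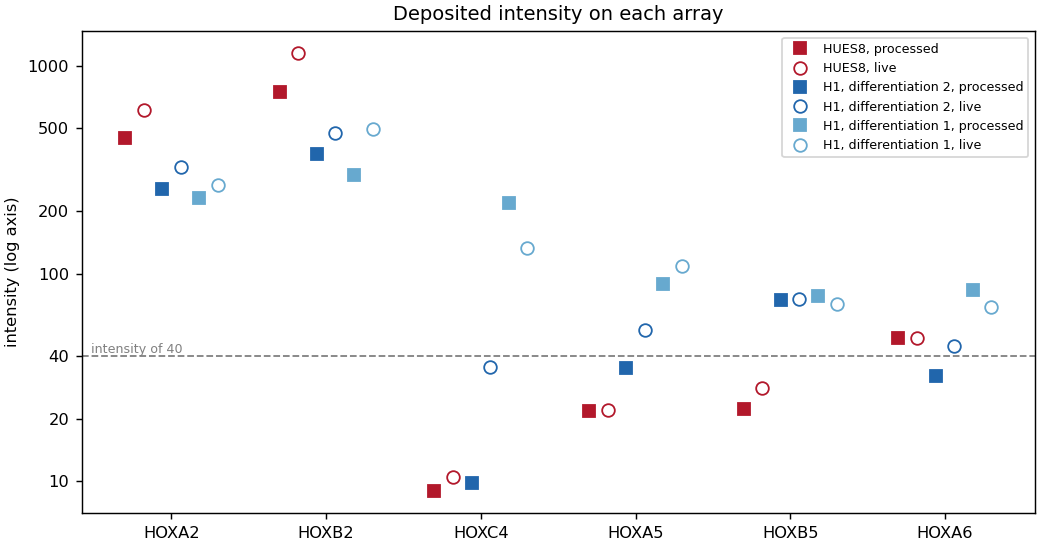
Deposited intensity of the 6 HOX genes expressed in at least 1 culture, on each of the 6 arrays (log axis, filled squares for processed and open circles for live samples). The HUES8 points of HOXA2 and HOXB2 lie above all H1 points, those of HOXA5 and HOXB5 lie below them, and HOXC4 is above 40 (dashed line) in H1 differentiation 1 only.

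The group 5 genes showed the opposite order. HOXB5 was measured at 22.4 (processed) and 28.2 (live) in HUES8, against 74.5 and 75.6 in H1 differentiation 2 and 78.1 and 71.1 in H1 differentiation 1. The 4 H1 arrays lay close together and all above the level taken as expressed, and both HUES8 arrays lay under it. The difference was -1.07 (SE 0.34, 95% interval -1.81 to -0.32, limma, adjusted p = 0.206), which with the dim HUES8 arrays set to 40 amounts to a level at least 1.58-fold lower in HUES8. In the mouse, Hoxb5 acts in the innervation of the gut and in the lung.

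HOXA5, a regulator of lung and gut mesenchyme in the mouse, read 21.7 and 22.2 in HUES8, against 35.0 and 53.3 in H1 differentiation 2 and 89.4 and 109 in H1 differentiation 1. HUES8 was again lowest, but the H1 cultures did not overlap each other either. HUES8 minus H1 was -1.05 (SE 0.41, 95% interval -1.94 to -0.16, limma, adjusted p = 0.348), and differentiation 2 minus 1 was -0.90. With the HUES8 arrays set to 40, and with 3 of the 4 H1 arrays at 40 or more, the bound against the H1 mean was at least 1.45-fold lower in HUES8. This bound rests mainly on differentiation 1, because differentiation 2 read 35.0 and 53.3, under and little above 40. HUES8 minus H1 came to -1.50 against differentiation 1 alone and to -0.60 against differentiation 2 alone.

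HOXC4 and HOXA6 separated the cultures in other ways. HOXC4 was at 8.97 and 10.4 in HUES8, against 9.81 and 35.5 in H1 differentiation 2 and 219 and 132 in H1 differentiation 1. It was therefore expressed in differentiation 1 only, and the HUES8 and H1 arrays overlapped. The difference between lines was -1.57 (SE 0.65, 95% interval -2.97 to -0.16, limma, adjusted p = 0.403), and it depended on the H1 culture: -2.68 against differentiation 1 alone and -0.45 against differentiation 2 alone. With the HUES8 arrays set to 40, and with 2 of the 4 H1 arrays at 40 or more, the bound against the H1 mean was at least 1.47-fold lower in HUES8. It rests on differentiation 1, because both arrays of differentiation 2 were under 40 and give no bound.

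HOXA6, a trunk gene of cluster A, had intensities of 48.8 and 49.2 in HUES8, against 32.2 and 44.9 in H1 differentiation 2 and 83.0 and 69.2 in H1 differentiation 1. HUES8 lay between the H1 cultures, with a difference of -0.11 (SE 0.39, 95% interval -0.95 to 0.72, limma, adjusted p = 0.974). HUES8 minus H1 was 0.25 against differentiation 2 alone and -0.47 against differentiation 1 alone. The interval does not show that the lines were alike.

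**Figure D3:**
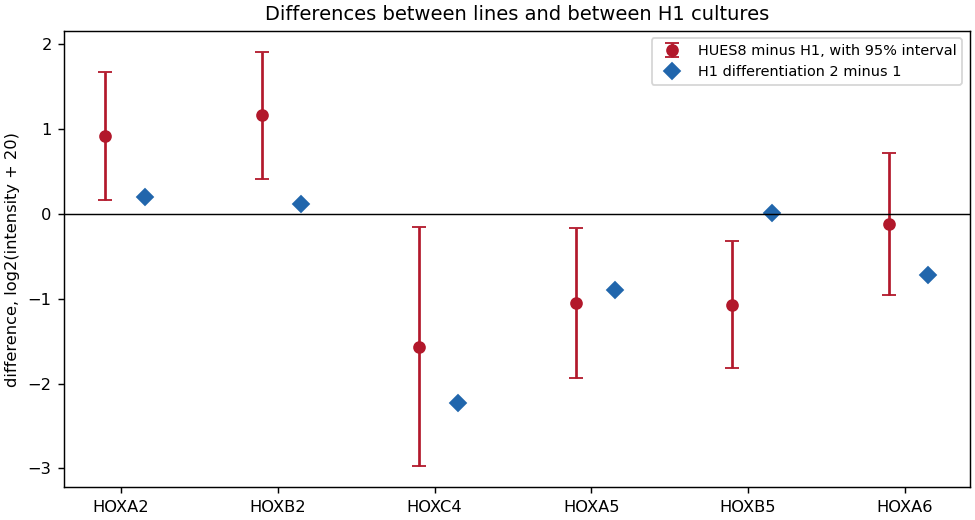
Difference of the culture means on the log2(intensity + 20) scale for the 6 tested HOX genes, with HUES8 minus H1 as circles with 95% intervals from limma and H1 differentiation 2 minus 1 as diamonds. HOXA2, HOXB2 and HOXB5 differ by much more between lines than between the H1 cultures, HOXA5 by about as much (-1.05 and -0.90), and HOXC4 and HOXA6 by less.

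Across these 6 members, limma called 0 between HUES8 and H1, while 1.31% of the 13483 genes tested were called (0.408% higher and 0.897% lower in HUES8). At an unadjusted p under 0.05 there were 5 of the 6, against 10.2% of all genes tested, and 1 of the 6 by the methods' t-test run on those culture means. The HUES8 and H1 arrays did not overlap for 4 of the 6, 2 above and 2 below, against 37.3% of all genes tested (19.1% above and 18.1% below). The lines were at least 2-fold apart for 4 of the 6, against 5.94% of all genes tested. HOXA5, HOXB5 and HOXC4 passed the filter through H1 arrays alone and so had to differ, and these counts therefore give no support to a difference between the lines. The fit has 1 residual degree of freedom, and with 3 cultures an exact permutation test could not go below p = 0.333.

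The H1 cultures also differed from each other. HOXC4 was the only 1 of the 6 members at least 2-fold apart, with differentiation 2 minus 1 at -2.23, and with differentiation 2 set to 40 it was at least 3.18-fold lower there. Of all genes tested, 4.21% were at least 2-fold apart between these cultures (1.74% higher and 2.47% lower in differentiation 2). HOXA5 (-0.90) and HOXA6 (-0.72) had the same sign, and HOXB5 differed by 0.008. With 1 culture each, there was no test.

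The 13 retinoic acid pathway genes tested had a median of -0.23 between the H1 cultures (differentiation 2 minus 1) and went both ways, and the 3 given here were named after their values had been seen. DHRS3, an enzyme that limits retinoic acid and is induced by it, was at 295 and 236 in H1 differentiation 2, against 971 and 1037 in H1 differentiation 1, and RARB, a receptor gene that retinoic acid induces, was at 27.7 and 20.6, against 69.0 and 65.8. CYP26A1, an enzyme that degrades retinoic acid and is likewise induced by it, went the other way, at 177 and 213 in H1 differentiation 2, against 100.1 and 110 in H1 differentiation 1 (0.78, beside -1.85 for DHRS3). In HUES8, DHRS3 was at 244 and 231, RARB at 30.6 and 19.6 and CYP26A1 at 144 and 163, so that RARB was under 40 outside H1 differentiation 1. Whether these levels had a part in those of HOXC4 and HOXA5 was not tested.

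Processed and live samples were compared to see whether fixation, staining and sorting shifted the HOX readings. HOXB2 read lower in the processed sample in each pair, at -0.60 in HUES8, -0.32 in H1 differentiation 2 and -0.70 in H1 differentiation 1, with a mean of -0.54 ± 0.20 (SD, n = 3 pairs). HOXA2 did so as well, at -0.43, -0.32 and -0.20, with a mean of -0.32 ± 0.12 (SD, n = 3 pairs). Neither passed (limma, adjusted p = 0.429 for HOXB2 and 0.519 for HOXA2), although HOXB2 passed when H1 differentiation 2 was left out (-0.65, adjusted p = 0.0300), a fit in which 512 genes were called, against 48 without H1 differentiation 1 and 11 without HUES8. Fixation and the extraction kit cannot be told apart here.

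HOXA5 had a mean of -0.22 ± 0.20 (SD, n = 3 pairs) and was also lower in 3 of 3 pairs, by 0.02 in HUES8. HOXB5 (-0.03), HOXA6 (-0.04) and HOXC4 (-0.11 ± 0.77, SD, n = 3 pairs) went both ways among the pairs. HOXC4 was 0.65 in H1 differentiation 1, where it was bright. Thus 3 of the 6 members were lower in all 3 processed samples, against 19.6% of all genes tested. Over all 13483 genes limma called 0 (0%) in the blocked fit, with 1285 at an unadjusted p under 0.05 (9.53%), HOXA2 and HOXB2 among them, and the smallest p that exact sign flips of 3 pairs allow is 0.25.

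**Figure D4:**
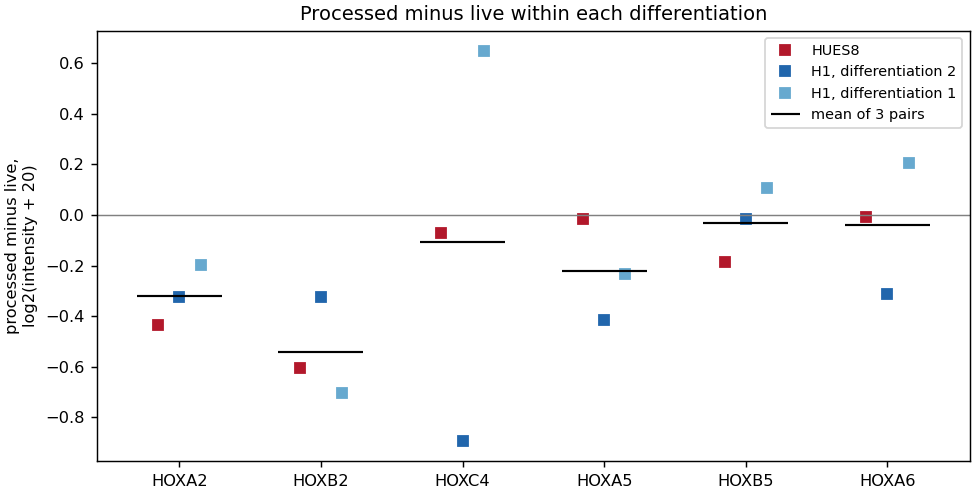
Processed minus live on the log2(intensity + 20) scale for the 6 tested HOX genes, as 1 square per differentiation and a bar for the mean of 3 pairs. HOXA2 and HOXB2 lie under 0 in all pairs, and HOXC4 ranges from -0.90 in H1 differentiation 2 to 0.65 in H1 differentiation 1.

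The processing effect in HUES8 differed from the mean effect in H1 by -0.17 for HOXA2, -0.09 for HOXB2, 0.31 for HOXA5, 0.05 for HOXA6, -0.23 for HOXB5 and 0.05 for HOXC4. Limma called none of the 6 (adjusted p = 1.00 for each, and 0 at an unadjusted p under 0.05), and it called 28 of 13483 genes (0.208%, with 4.29% at an unadjusted p under 0.05).

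The partners of HOX proteins were broadly expressed. All 9 cofactor genes of the PBX, MEIS and PKNOX families were tested and 0 were called between lines, with a median of 0.06 beside 0.02 for all genes tested. PBX2 had the highest difference, 0.56 (968 and 825 in HUES8, against 468 and 546 in H1 differentiation 2 and 740.0 and 674 in differentiation 1). MEIS1 had the lowest, -0.60 (317 and 363 in HUES8, against 543 and 522, and 497 and 541). Neither passed (limma, adjusted p = 0.702 and 0.634).

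Of the ParaHox genes, the relatives of the HOX genes that pattern the gut, 3 of 6 were tested and 1 was called, against 1.31% of all genes tested. CDX2, an intestinal factor and a regulator of central HOX genes, was at 10.2 and 15.6 in HUES8, against 363 and 304 in H1 differentiation 2 and 206 and 351 in H1 differentiation 1, and with the HUES8 arrays set to 40 it was at least 5.32-fold lower in HUES8 (limma, adjusted p = 5.89e-04). Its relative CDX1 stood at 4.93 and 5.52 in HUES8, against 22.6 and 30.4, and 47.8 and 66.6 in H1 differentiations 2 and 1 (adjusted p = 0.186), which gives no bound on a fold. CDX2 and CDX1 passed the filter through H1 arrays alone and so had to differ, which limits what the call of CDX2 shows. Whether the levels of CDX2 or CDX1 had a part in those of the HOX genes was not tested. PDX1, a pancreatic master regulator, was at 666 and 477 in HUES8, against 1415 and 1452 in H1 differentiation 2 and 2658 and 2542 in H1 differentiation 1 (-1.74, adjusted p = 0.0632). CDX4, GSX1 and GSX2 did not exceed 9.84.

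Of 18 retinoic acid pathway genes, 13 were tested and 0 were called, with a median of 0.08. CRABP1, a retinoic acid binding protein of the cytoplasm, was highest at 0.85 (2570 and 3562 in HUES8, against 1795 and 1797 in H1 differentiation 2 and 1387 and 1729 in differentiation 1, limma, adjusted p = 0.390).

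Of 21 Polycomb and trithorax names, which cover the proteins that silence HOX clusters or keep them active, 17 were tested and 0 were called, with a median of 0.13. WDR5, a subunit of the enzymes that methylate histone H3 at active genes, had the lowest difference (-0.49, limma, adjusted p = 0.755), at 92.2 and 80.4 in HUES8, against 106 and 131 in H1 differentiation 2 and 153 and 128 in differentiation 1.

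Non-coding RNAs inside the clusters and genes flanking them gave little signal from within the clusters. Of 18 such rows, 12 were below 40 on all arrays, between -6.17 and 25.7, among them HOTAIR, MIR10A, MIR10B, EVX1 and EVX2. The 6 tested were flanking or nearby genes, with a median of -0.29 and 0 called, from MTX2 (0.45, limma, adjusted p = 0.777), next to the HOXD cluster, to CALCOCO1 (-0.37, adjusted p = 0.858), next to the HOXC cluster.

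EGR2, which activates group 2 Hox genes in the mouse hindbrain and was named after its values had been seen, was at 291 and 259 in HUES8, against 162 and 232 in H1 differentiation 2 and 89.0 and 109 in H1 differentiation 1 (0.88, limma, adjusted p = 0.481). Both HUES8 arrays lay above all 4 H1 arrays, as for 19.1% of all genes tested. The H1 cultures were 0.85 apart (differentiation 2 minus 1), about as far as the lines. EGR2 came from a list of 8 hindbrain regulators, of which 5 were tested and went both ways between lines. Whether the level of EGR2 had a part in those of HOXA2 and HOXB2 was not tested.

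**Figure D5:**
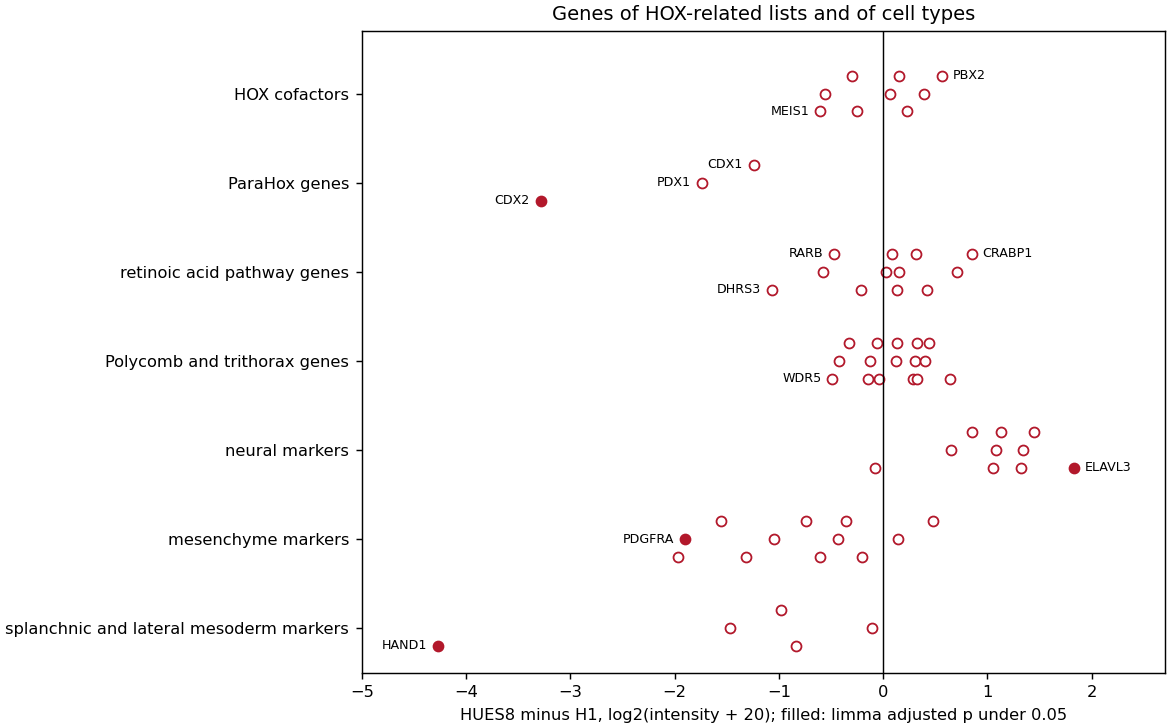
HUES8 minus H1 on the log2(intensity + 20) scale for tested genes of 4 lists related to HOX genes and of 3 marker lists, with filled points for limma adjusted p under 0.05. CDX2, ELAVL3, PDGFRA and HAND1 are the called genes shown. CDX2, PDGFRA, HAND1, CDX1, TBX3, POSTN, COL6A3, TWIST1 and RARB were under 40 on both HUES8 arrays. The sizes plotted for them therefore rest on dim readings. These genes passed the filter through H1 arrays alone.

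Markers of cell types in which HOX genes are active moved beside these results. Of 11 neural markers 10 were tested, with a median of 1.11 between lines and -0.12 between the H1 cultures. Their summed intensity ranged from 7261 to 9619 in HUES8, against 3533 to 5757 in H1. TUBB3 supplied the largest part of each sum, at 3481 and 4832 in HUES8, against 1535 to 3924 in H1. Its arrays overlapped between lines (0.65, beside -1.08 between the H1 cultures). ELAVL3, an RNA binding protein of neurons, was the 1 called: it had 232 and 278 in HUES8, against 54.7 to 61.4 in H1, a difference of 1.83 (limma, adjusted p = 0.0197). Of all genes tested, 0.408% were called higher in HUES8. SOX1, a defining gene of neural progenitors, did not exceed 0.27 on any array, and several of the others are also active in endocrine cells of the pancreas. The part of neural cells in the HOXA2 and HOXB2 readings was not tested.

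Markers of mesenchyme had a median of -0.67 between lines and 0.91 between the H1 cultures (12 of 13 tested), with summed intensities from 7614 to 7873 in HUES8, against 5687 to 9597 in H1. VIM alone supplied most of each sum, at 6634 and 6978 in HUES8, against 4331 to 6096 in H1. The sums therefore mainly show VIM, which was higher in HUES8, unlike the median of the list. PDGFRA, a growth factor receptor of mesenchyme, was the 1 called, at 32.9 and 33.7 in HUES8, against 143 to 229 in H1, and at least 3.33-fold lower in HUES8 (limma, adjusted p = 0.0206). Of 11 splanchnic and lateral mesoderm markers, 5 were tested and 1 was called. This was HAND1, a mesoderm transcription factor, at 24.6 and 19.7 in HUES8, against 525 to 1068 in H1, and at least 13.5-fold lower in HUES8 (limma, adjusted p = 1.27e-04). The summed intensity of this list ranged from 640.3 to 720.0 in HUES8, against 1595 to 2570.2 in H1. ISL1 and HAND1 supplied most of each sum, with ISL1 at 500 and 450 in HUES8, against 663 to 1219 in H1. The sums therefore mainly show ISL1 and HAND1, and 5 of the 10 rows of this list were below 40 on all arrays. FOXF1, TCF21 and HAND2, which define gut mesenchyme, were below 40 on all arrays. PDGFRA and HAND1 passed the filter through H1 arrays alone and so had to differ, which limits what their calls show. Intestinal markers, CDX2 among them, were called lower in HUES8 in 2 of 3 tested and liver markers in 5 of 7. Pancreatic markers were called lower in 1 of 9 and pluripotency markers in 1 of 3. Of all genes tested, 0.897% were called lower in HUES8. Most of the called genes of these lists were under 40 on both HUES8 arrays and so passed the filter through H1 arrays alone. The intestinal list had sums of 249 to 319 in HUES8, against 620 to 749 in H1. VIL1 did not share in this gap, at 277 and 177 in HUES8, against 156 to 280 in H1 (0.07). FABP2, LGALS4 and ISX were below 40 on all arrays. The gap between the sums therefore mainly shows CDX2 and CDH17. Of the 3 neural crest markers tested, 0 were called (median 0.10), and the 5 endothelial and blood markers were below 40 on all arrays. The part of any of these cell types in the readings of HOXA5, HOXB5 and HOXC4 was not tested.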

How the data were processed

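RNA had been hybridized to Human HT-12 BeadChips, with 1 array per sample. The intensities analysed were deposited by the authors after background subtraction and rank-invariant normalization in GenomeStudio, as 1 row per gene symbol. Of the values, 4.37% lay below 0 (11.5% of HOX values). Another 12 columns, 6 of them signals, carry names that match no sample label and were not used. Negative intensities were replaced by 0 and, following the methods, differences were taken on log2(intensity + 20), which understates differences of dim genes. Genes at 40 or more on at least 2 of 6 arrays were tested (13483), so that a gene found in HUES8 alone could enter. Probe sequences, slides and scan positions were not given in the sources used here, and the number of arrays limits the precision.

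The 3 culture means entered a limma fit (3.58.1, R 4.3.3) of HUES8 and H1, and the 6 arrays a fit of processed and live samples, blocked by differentiation. The labels give both samples of a pair 1 differentiation. Deviations from the group means correlated at 0.81, 0.63 and 0.79 within pairs. The effect of processing in HUES8 was set against that in H1 on the within-pair differences. Benjamini-Hochberg adjusted p-values under 0.05 over all genes tested were called. The fits were tested on simulated data. For HOX genes, and for called genes that are named, readings under 40 on both arrays of a culture gave a bound with those arrays set to 40.

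Alternatives were a common median, quantile normalization, an offset of 50, other filters, 1 preparation alone, the block, other minimum intensities and leaving out cultures. The methods' t-test and the scalings of the overlap count were added after seeing the data. Values on all arrays were given for HOX genes at 40 or more on both arrays of a culture. From the other lists, called genes were named (at most 4), or else the highest and lowest, and some genes are not reported here. The members and lists were chosen with earlier results of these data known. Promoter windows came from RefSeq (GRCh38.p14), where 20 members matched and 19 did not, HOXB2, HOXA5 and HOXB5 among them. Motifs were searched in the 250 bases before the start.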

Additional observations from a re-analysis of the deposited data

How the results depend on the processing

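No HOX gene was called between HUES8 and H1 by limma under any of the 9 alternatives with a test in which it was tested (HOXC4 left at a minimum of 3 arrays, and all but HOXA2 and HOXB2 at 6), and the directions of HOXA2, HOXB2, HOXA5, HOXB5 and HOXC4 held throughout, whereas HOXA6 ranged from -0.47 to 0.25 when an H1 culture was left out. The smallest adjusted p came from 6 arrays with the differentiation as a random replicate block, at 0.0606 for HOXB2 and 0.0712 for HOXB5. The genes called between lines over the whole table numbered 282 with that block, 109 after quantile normalization, 80 with 40 or more on all arrays, 99 on live arrays, 109 on processed arrays, 0 with no filter (limma, where HOXB2 had adjusted p = 0.848) and 1 by the methods' t-test, against 176. Leaving out an H1 culture leaves no residual degree of freedom and was given as values only. Without 1 pair, 11 to 512 genes were called between processed and live samples, against 0 with all pairs, 0 without the block and 0 by the methods' t-test (335 unadjusted). The processing effect differed between lines for 0 genes with a common median or no filter and for 5 with an offset of 50, against 28. At an offset of 50, 294 genes were 2-fold apart between the H1 cultures, against 567.

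Processed minus live turned positive with a common median for HOXA6 (0.042) and HOXB5 (0.055), with an offset of 50 for HOXC4 (0.0035), and when a pair was left out, with ranges of -0.16 to 0.10 for HOXA6 and -0.48 to 0.29 for HOXC4 (positive without pair 2) and -0.10 to 0.045 for HOXB5 (positive without pair 3). The difference in processing effect turned negative for HOXA6 with a common median (-0.050) or quantile-normalized arrays (-0.0058), and for HOXC4 with a common median (-0.049) and an offset of 50 (-0.059). None of these was called, and the causes were not tested. HOXC4, HOXA5, HOXB5 and HOXA6 were below 40 on at least 1 array, which limits their precision.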
